A study of Mus musculus with 4 samples.

Results

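The 41 genes described here encode proteins of DNA replication and of cell division. They are 18 S phase genes, from Pcna to Cdc6, and 23 G2/M genes, from Mki67 to Fanci, taken by symbol from the 50766 genes of the gene table, which held all 41. Their membership rests on known function and not on values of these libraries, although the list was drawn up with results of the same data in view. The 2 sets were contrasted between sham surgery and bile duct ligation in biliary cells and in mesenchymal cells.

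The cells came from livers of mice of the genotype Sox9EGFP, and the labels call them biliary epithelial cells (BECs), which form the lining of bile ducts. One group of 2 libraries was taken 7 days after sham surgery and the other group of 2 libraries 7 days after bile duct ligation (BDL), which ties off the bile duct so that bile backs up into the liver. All 4 libraries share the Sox9EGFP genotype, and age, sex, the way cells were enriched and what the transgene drives were not given in the sources used here. Nothing beyond separate library names says that the 4 libraries came from separate animals, so p-values measure the spread between libraries.

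A group name also stands in the table of cells of each library, and it goes against the sample label for sham replicate 2, where it reads BDL, and for BDL replicate 2, where it reads sham. Groups below follow the sample labels. Values between the other 2 libraries, sham replicate 1 and BDL replicate 1, are given for the medians and sums below, and the tests use all 4. Of the largest clusters of BEC-like cells, 2 held 978 and 705, and 634 and 904, cells of the sham libraries and 3 and 4, and 7 and 1, cells of the BDL libraries, so in these the libraries paired as the sample labels say. The libraries held 2089 to 4065 cells and 10024577 to 33809650 UMIs (unique molecular identifiers, counts of single transcripts), no cell barcode was shared between libraries, and 12180 of 12211 cells were kept. A cell held a median of 3260 and 2610 in sham and 7058 and 7793 UMIs in the BDL libraries, so depth went with the group.

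Cells were clustered and clusters named from marker lists. BEC-like cells numbered 2619 and 2590 in sham and 1965 and 3807 in the BDL libraries, and all 11 biliary markers, Krt19 and Epcam among them, were detected in each. Mesenchymal-like cells, led by collagens, Lrat and other markers of stellate cells and fibroblasts, numbered 187 and 416 in sham and 71 and 133 in the BDL libraries. Within BEC-like sums, the summed level of 10 hepatocyte markers was 1625 and 1688 CPM (UMI counts scaled to a fixed total per library) in sham and 425 and 423 CPM in the BDL libraries. That of 12 mesenchymal markers was 107 and 106 CPM against 18.3 and 32.8 CPM, and that of 9 endothelial markers 47.6 and 49.1 CPM against 23.2 and 10.5 CPM. Lists of other cells that were higher in both BDL libraries were 5 mesothelial markers, at 15.8 and 27.3 CPM in sham and 30.97 and 58.3 CPM in BDL, 5 dendritic cell markers, at 37.6 and 36.7 CPM against 55.8 and 40.1 CPM, and 5 erythroid markers, all under 1 CPM in sum. The part of these lists in the results below was not tested.

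During S phase the genome is copied: Cdc6 helps load the MCM helicase onto origins, Cdc45 and the GINS complex switch it on, DNA polymerase alpha with its primase starts each strand, and the clamp Pcna holds the later polymerases on DNA. Genes of this step are classical targets of E2F transcription factors. Genes of G2 and mitosis are switched on later by the MuvB complex with B-Myb and FOXM1, through promoter elements called CHR (cell cycle genes homology region) and through CCAAT boxes. Bile duct cells of adult liver divide little at rest, and proliferation of ducts after ligation, the ductular reaction, is a long-known response.

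Promoters are shown for the 3 members of each set with the smallest adjusted p in BEC-like cells, because the 2 sets differ in these elements. The sequences run from 250 bases before to 50 bases after the gene start, 5′ to 3′ on the gene's strand, and come from RefSeq on GRCm38.p6, a different assembly from that of the count data. Capitals mark exact matches on either strand to E2F motifs (TTTCCCGC, TTTGGCGC, TTTCGCGC or TTTGCCGC), to CHR motifs (TTTGAA or TTCGAA) or to CCAAT. No motif contains another, though neighbouring matches can share bases, as CCAAT and its reverse do at the start of Uhrf1. The 3 S phase genes are:
Uhrf1, chr17:56303087-56303386, plus strand: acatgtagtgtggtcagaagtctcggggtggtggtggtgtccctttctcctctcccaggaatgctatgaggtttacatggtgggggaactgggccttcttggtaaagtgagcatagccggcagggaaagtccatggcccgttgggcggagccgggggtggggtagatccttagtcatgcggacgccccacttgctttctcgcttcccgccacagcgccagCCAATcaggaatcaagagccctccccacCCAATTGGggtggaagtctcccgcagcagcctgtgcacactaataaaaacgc
Mcm3, chr1:20820263-20820562, minus strand: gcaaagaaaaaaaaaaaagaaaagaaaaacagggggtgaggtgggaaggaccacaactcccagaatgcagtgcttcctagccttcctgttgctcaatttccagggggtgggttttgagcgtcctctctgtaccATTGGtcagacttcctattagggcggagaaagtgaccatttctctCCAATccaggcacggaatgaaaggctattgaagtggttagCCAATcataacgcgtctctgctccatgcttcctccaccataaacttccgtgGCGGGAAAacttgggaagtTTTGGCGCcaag
Dtl, chr1:191575495-191575794, minus strand: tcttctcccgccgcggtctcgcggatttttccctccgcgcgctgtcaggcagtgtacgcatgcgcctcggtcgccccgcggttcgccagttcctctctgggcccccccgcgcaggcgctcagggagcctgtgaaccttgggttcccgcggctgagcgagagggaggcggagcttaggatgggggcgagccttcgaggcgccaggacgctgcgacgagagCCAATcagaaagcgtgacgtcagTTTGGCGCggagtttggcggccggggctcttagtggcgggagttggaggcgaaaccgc
The 3 G2/M genes are:
Ect2, chr3:27153829-27154128, minus strand: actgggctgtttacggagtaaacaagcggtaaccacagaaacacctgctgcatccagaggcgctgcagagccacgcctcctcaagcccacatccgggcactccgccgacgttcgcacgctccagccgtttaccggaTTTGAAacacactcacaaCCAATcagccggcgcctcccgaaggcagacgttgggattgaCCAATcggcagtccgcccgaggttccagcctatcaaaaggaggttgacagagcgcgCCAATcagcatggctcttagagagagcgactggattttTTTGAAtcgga
Diaph3, chr14:87141175-87141474, minus strand: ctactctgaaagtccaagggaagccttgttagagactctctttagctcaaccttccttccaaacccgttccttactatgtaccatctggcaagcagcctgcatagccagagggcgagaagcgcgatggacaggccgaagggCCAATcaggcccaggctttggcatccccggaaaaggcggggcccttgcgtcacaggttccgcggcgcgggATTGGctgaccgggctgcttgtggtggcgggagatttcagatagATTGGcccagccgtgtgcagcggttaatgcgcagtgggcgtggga
Top2a, chr11:99024140-99024439, minus strand: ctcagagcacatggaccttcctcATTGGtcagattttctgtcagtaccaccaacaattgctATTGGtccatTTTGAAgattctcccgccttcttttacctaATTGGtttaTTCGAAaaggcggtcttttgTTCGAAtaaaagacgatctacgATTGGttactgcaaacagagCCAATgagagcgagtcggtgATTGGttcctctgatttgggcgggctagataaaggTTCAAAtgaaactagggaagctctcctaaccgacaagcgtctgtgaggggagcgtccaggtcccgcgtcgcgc

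The Mcm3 window held 2 E2F matches just after the gene start and the Dtl window held 1 match 8 bases before it. The Uhrf1 entry shown is the first of 2 and held only CCAAT matches, while its other entry held an E2F match. Top2a had 4 CHR matches and 6 CCAAT matches, 5 of the latter in the reverse orientation ATTGG. Ect2, also the first of 2 entries, had 2 CHR and 3 CCAAT matches, and Diaph3 had 3 CCAAT matches and no CHR match. A match describes the letters only, and no binding was measured.

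Over the 36 members with a promoter entry, the 2 sets differed in motif content. An E2F match stood in 8 of 16 S phase genes and in 1 of 20 G2/M genes (Cdk1), against 2.60% of 27025 genes with an entry. A CHR match stood in 3 of 16 S phase genes and 14 of 20 G2/M genes, against 21.7% of all genes. CCAAT was frequent in each set, in 13 of 16 and 14 of 20 genes, against 41.1% of all genes. CHR and CCAAT occurred together in 3 S phase genes and in 11 G2/M genes, against 8.61% of all genes. No entry was held for Mcm4, Gins2, Ccna2, Aurkb and Tpx2.

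In BEC-like cells, genes of both sets were higher in the BDL libraries, the G2/M set by more and with fewer exceptions. All 41 members passed the filter on low counts. At an adjusted p under 0.05 (edgeR, Benjamini-Hochberg over all 15980 genes tested), 8 of 18 S phase genes and 16 of 23 G2/M genes rose. Over all genes tested 14.3% were called higher and 12.9% lower. No member was called lower in edgeR or in DESeq2. At an unadjusted p under 0.05, edgeR gave 1 lower S phase gene (Pcna) and no lower G2/M gene, and DESeq2 gave none in either set.

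The median log2 fold change was 0.67 over the S phase genes (range -0.48 to 1.81) and 1.93 over the G2/M genes (0.39 to 2.93), beside a median of -0.02 over all genes tested. The 2 BDL libraries lay above both sham libraries for 13 S phase genes and 20 G2/M genes and below both for 2 S phase genes, Pcna and Pola1. No such count over all genes tested is available here. These counts, and those for groups of members below, are therefore description only. With sums thinned to the shallowest library 8 and 14 genes rose. Without sham replicate 1 the counts were 3 and 13, and without sham replicate 2, whose cell table names the other group, they were 6 and 13. Over all genes tested the share called higher was then 3.91% and 4.45%, so fewer genes were called throughout in these 2 settings. With a library left out, its group holds 1 library, which is assumed to vary like the other group, here and wherever a library is left out below. Between the 2 libraries whose cell tables match their labels, with no test, the medians were 0.51 and 1.54, and the log2 ratios of the unscaled sums 0.12 and 1.38. In sums of cells, more cells in the cycle and more transcript per cell cannot be told apart. The mix of BEC-like clusters also differed between groups. The cluster led by Cenpf, Mki67 and H1f5 held 15 and 7 cells in sham and 125 and 188 in the BDL libraries. The part of this mix in the sums was not tested.

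**Figure D1:**
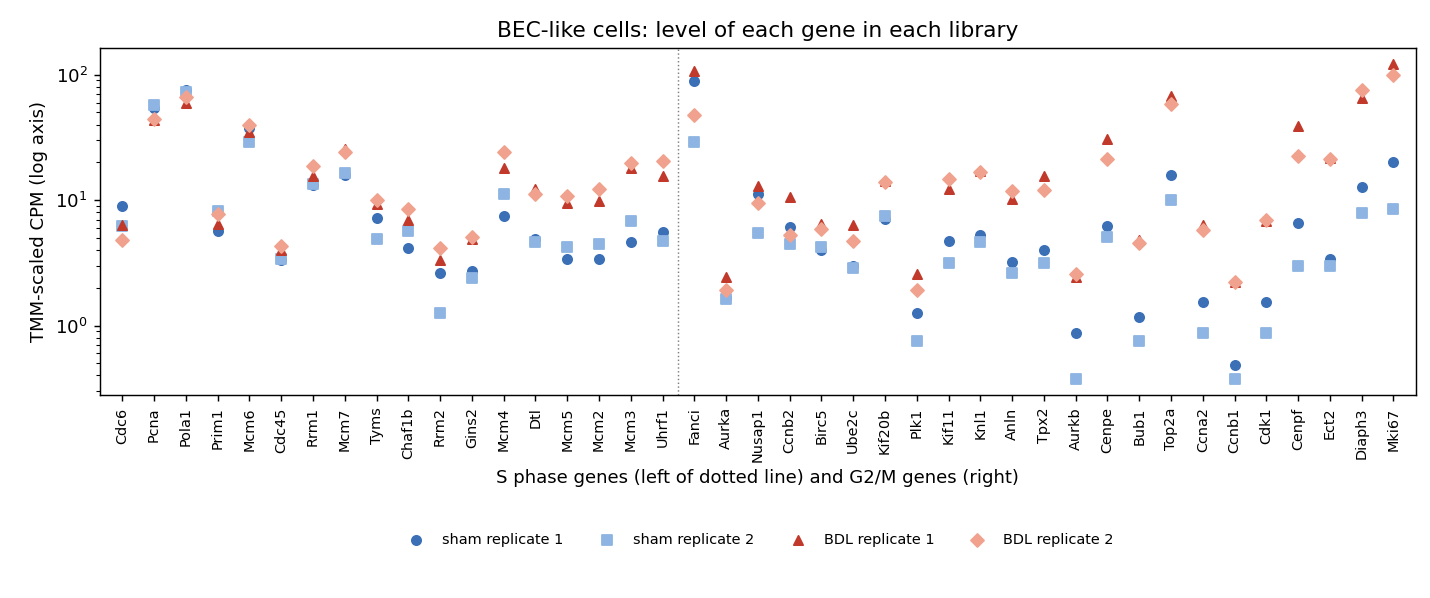
Level of each of the 41 genes in BEC-like cells of each library, in CPM scaled by TMM (trimmed mean of M-values), on a log axis; S phase genes are left of the dotted line and G2/M genes right of it, ordered by fold change. The BDL points lie above both sham points for 13 of 18 S phase genes and 20 of 23 G2/M genes, with no such count over all genes to set beside them.

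**Figure D2:**
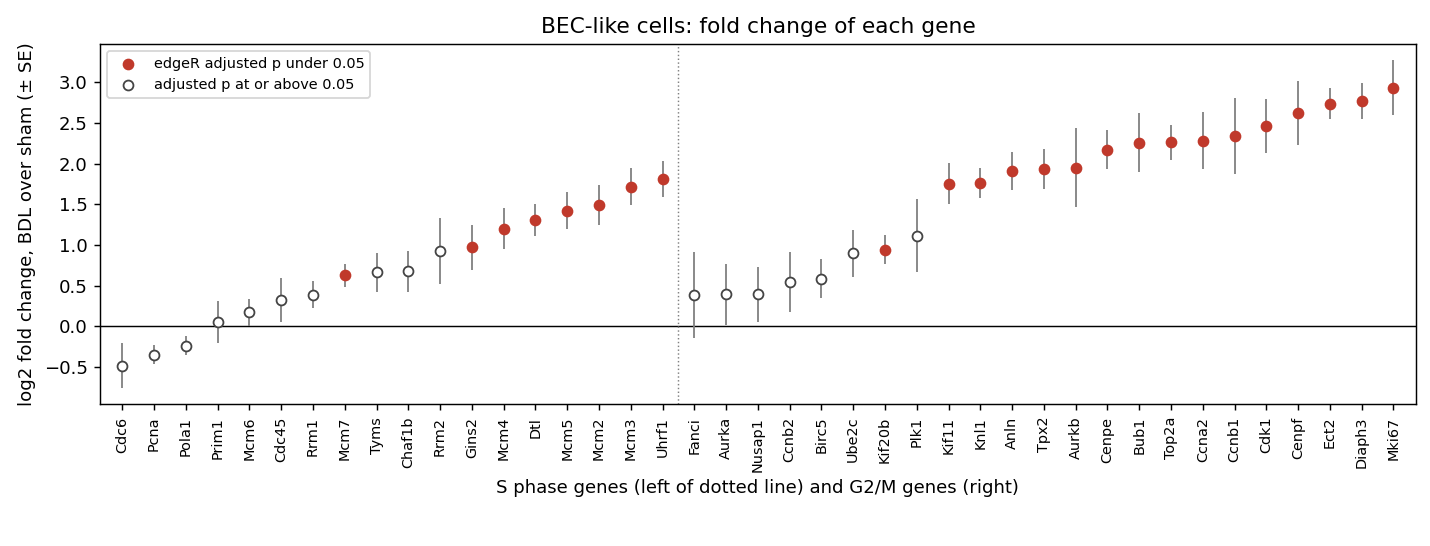
Log2 fold change of each gene in BEC-like cells, BDL over sham, with bars of 1 SE from the fit; filled points passed an adjusted p of 0.05. Filled points number 8 in the S phase set and 16 in the G2/M set, and the latter reach 2.93 for Mki67.

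Among the 7 genes of helicase loading, 5 rose (Mcm2, Mcm3, Mcm4, Mcm5 and Mcm7), while Mcm6 and Cdc6 did not pass the test. Mcm3, a subunit of the ring-shaped helicase, stood at 4.66 and 6.88 CPM in sham and at 17.99 and 19.6 CPM in the BDL libraries. The groups did not overlap, and the log2 fold change was 1.72 ± 0.22 (SE), adjusted p = 0.00293. Mcm6, which sits in the same 6-part ring, stood at 37.3 and 28.9 CPM in sham and 34.8 and 39.7 CPM in BDL. Its groups overlapped, with a log2 fold change of 0.17 ± 0.16 and an adjusted p of 0.469.

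The other subunits lay between these. Mcm2 had a log2 fold change of 1.49, Mcm5 of 1.42, Mcm4 of 1.20 and Mcm7 of 0.63. Mcm2, Mcm4 and Mcm5 lost their call without sham replicate 1, at adjusted p = 0.0649, 0.104 and 0.0613, and Mcm7 without either sham library. Cdc6, which loads the ring, stood at 9.03 and 6.25 CPM in sham and 6.30 and 4.80 CPM in BDL, a log2 fold change of -0.48 with an adjusted p of 0.228. Thus the loader and the 6 subunits did not share 1 direction of log2 fold change.

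Of the 5 genes that start and hold the fork, Gins2 alone rose. Gins2, a subunit of the GINS complex, stood at 2.72 and 2.38 CPM in sham and 4.91 and 5.12 CPM in BDL (log2 fold change 0.97 ± 0.28, adjusted p = 0.0409). This call was lost in DESeq2 and without sham replicate 1, sham replicate 2 or BDL replicate 2, with adjusted p up to 0.183. Prim1, the catalytic primase subunit, stood at 5.63 and 8.25 CPM in sham and 6.44 and 7.81 CPM in BDL, so that its BDL values lay within the sham range (0.05 ± 0.26, adjusted p = 0.892).

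Pcna and Pola1 were the only members with both BDL libraries below both sham libraries. Pcna stood at 54.4 and 57.5 CPM in sham and 43.6 and 44.3 CPM in BDL, a log2 fold change of -0.35 ± 0.11 that missed the threshold at an adjusted p of 0.0627. With genes under 10 CPM left out of the fit its adjusted p was 0.0244, and over all 12 alternatives it ran from 0.0244 to 0.478. Pola1, the catalytic subunit of polymerase alpha, stood at 76.1 and 73.2 CPM against 59.3 and 67.0 CPM (-0.24 ± 0.12, adjusted p = 0.175). Cdc45, the helicase activator, had a log2 fold change of 0.32 and an adjusted p of 0.413.

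None of the 3 genes of nucleotide supply passed the test, although both BDL libraries lay above both sham libraries for each. Tyms, thymidylate synthase, stood at 7.18 and 4.88 CPM in sham and 9.34 and 9.96 CPM in BDL (log2 fold change 0.67 ± 0.24, adjusted p = 0.0813). Rrm2, the cell cycle regulated subunit of ribonucleotide reductase, stood at 2.62 and 1.25 CPM against 3.32 and 4.17 CPM (0.93 ± 0.41, adjusted p = 0.134). Its partner Rrm1 had a log2 fold change of 0.39 and an adjusted p of 0.133. All 3 were called without BDL replicate 1, where the share of all genes called higher was 20.6%, and Tyms and Rrm2 also with no filter on low counts.

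Among genes that act on chromatin and protein turnover behind the fork, Uhrf1 and Dtl rose. Uhrf1 binds DNA methylated on only the old strand and recruits the maintenance methyltransferase. It stood at 5.53 and 4.75 CPM in sham and 15.5 and 20.6 CPM in BDL, with the highest log2 fold change of the S phase set (1.81 ± 0.22, adjusted p = 0.00241). Dtl, the substrate receptor of a ubiquitin ligase that acts with Pcna on DNA, stood at 4.85 and 4.63 CPM against 12.2 and 11.3 CPM (log2 fold change 1.30). Chaf1b, a subunit of the chromatin assembly factor that deposits histones on new DNA, stood at 4.17 and 5.63 CPM in sham and 6.99 and 8.50 CPM in BDL (0.68 ± 0.25, adjusted p = 0.0900), and it was called in the same 2 settings as Tyms. Mcm3, Uhrf1 and Dtl were the 3 S phase genes called under every alternative setting tried in which they were tested.

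In the G2/M set, 3 of 5 genes of the cyclin, kinase and destruction machinery rose (Cdk1, Ccna2 and Ccnb1). Cdk1, the kinase that drives entry into mitosis, stood at 1.55 and 0.876 CPM in sham and 6.85 and 6.89 CPM in BDL, from 16 and 7 UMIs in sham and 99 and 218 in BDL. Its groups were far apart (log2 fold change 2.46 ± 0.34, adjusted p = 0.00349). Its partners Ccna2 and Ccnb1 had log2 fold changes of 2.29 and 2.34, the latter from only 5 and 3 UMIs in sham, and Ccnb1 lost its call without either sham library (adjusted p up to 0.0937).

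Ccnb2, the other B-type cyclin of the list, stood at 6.12 and 4.50 CPM in sham and 10.6 and 5.31 CPM in BDL. BDL replicate 2 lay between the sham libraries, and the log2 fold change was 0.55 ± 0.37 with an adjusted p of 0.312. It was called without BDL replicate 2, at 0.99. Ube2c, the ubiquitin-conjugating enzyme of the anaphase-promoting complex, had a log2 fold change of 0.90 and an adjusted p of 0.0604.

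Of 5 mitotic kinases and passenger proteins, Bub1 and Aurkb rose, and for all 5 the BDL libraries lay above both sham libraries. Bub1, a kinase of the spindle checkpoint, stood at 1.17 and 0.750 CPM in sham and 4.84 and 4.55 CPM in BDL (log2 fold change 2.26 ± 0.36, adjusted p = 0.00599). Aurka, the centrosomal Aurora kinase, stood at 1.65 and 1.63 CPM in sham and 2.42 and 1.93 CPM in BDL (0.39 ± 0.38, adjusted p = 0.470). The kinase of the passenger complex, Aurkb, had a log2 fold change of 1.95, from 9 and 3 UMIs in sham, and was called under 7 of 11 alternatives.

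Plk1, a kinase with many mitotic roles, had a log2 fold change of 1.11 and an adjusted p of 0.111. Birc5 (survivin), which belongs to the same complex as Aurkb, had a log2 fold change of 0.59 and an adjusted p of 0.113.

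All 5 chromosome and kinetochore genes rose. Top2a, the topoisomerase that untangles sister chromatids, stood at 15.8 and 10.01 CPM in sham and 67.2 and 58.3 CPM in BDL (log2 fold change 2.26 ± 0.22, adjusted p = 0.000992). Cenpf, a large kinetochore protein, stood at 6.60 and 3.002 CPM against 38.7 and 22.5 CPM, with BDL replicate 1 the higher of its group (2.63 ± 0.39, adjusted p = 0.00489). Mki67, which coats mitotic chromosomes and is the gene of the Ki-67 antigen, stood at 20.1 and 8.51 CPM in sham and 123 and 100.2 CPM in BDL, a log2 fold change of 2.93 ± 0.34. Cenpe, a kinetochore motor, had a log2 fold change of 2.17 and Knl1, the scaffold on which checkpoint proteins gather, of 1.76.

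Spindle genes were split. Tpx2, which activates Aurka and nucleates microtubules, stood at 3.98 and 3.13 CPM in sham and 15.5 and 11.98 CPM in BDL (log2 fold change 1.93 ± 0.24, adjusted p = 0.00264), and the spindle motor Kif11 rose by a log2 fold change of 1.76. Nusap1, which bundles spindle microtubules, stood at 11.3 and 5.50 CPM in sham and 13.0 and 9.48 CPM in BDL. Its groups overlapped (0.39 ± 0.34, adjusted p = 0.420).

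All 4 cytokinesis genes rose. Ect2, the exchange factor that switches on RhoA at the cell equator, stood at 3.40 and 3.002 CPM in sham and at 21.7 and 21.3 CPM in BDL, the member with the smallest adjusted p (log2 fold change 2.74 ± 0.19, adjusted p = 0.000389). Diaph3, a formin that lays down actin filaments, stood at 12.6 and 7.88 CPM against 65.7 and 75.9 CPM (log2 fold change 2.77), and Anln, the scaffold of the contractile ring, had a log2 fold change of 1.91. Kif20b, a motor of late cytokinesis, stood at 7.09 and 7.50 CPM against 14.1 and 13.9 CPM (0.94 ± 0.18, adjusted p = 0.0103). It lost its call without either sham library, at adjusted p up to 0.0814.

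Fanci, which with its partner Fancd2 marks DNA crosslinks for repair, spread as widely within the groups as between them. It stood at 88.9 and 28.9 CPM in sham and 108 and 48.1 CPM in the BDL libraries, and each group held a high and a low library. The log2 fold change was 0.39 ± 0.53 with an adjusted p of 0.622. Over the 12 alternatives its log2 fold change ran from -0.28 to 1.43, so its direction was not settled. The low library of each group is the one whose cell table names the other group. Polg, which overlaps Fanci in the annotation used here, stood at 22.2, 20.5, 27.1 and 30.4 CPM in the same order and did not follow it.

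In all, 9 members overlap another protein-coding gene, and whether counting used strand is not given in the sources used here, so shared reads cannot be set apart. The pairs are Mcm7 with Ap4m1, Gins2 with Gse1, Cdc45 with Ufd1, Dtl with Ints7, Ccna2 with Exosc9, Aurka with Cstf1, Anln with 9530077C05Rik, Nusap1 with Oip5, and Fanci with Polg. Of the partners of members that rose, Ap4m1, Gse1, Ints7 and Exosc9 did not pass the test, with log2 fold changes of 0.15, 0.15, 0.46 and 0.33, and 9530077C05Rik, the partner of Anln, was not matched by symbol. Partners of members that did not pass rose in 3 cases, Ufd1 (0.65), Cstf1 (0.83) and Oip5 (2.30), and Polg did not pass (0.43).

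Summed over a set, the S phase genes took 261 and 258 CPM of BEC-like counts in sham and 303 and 338 CPM in the BDL libraries, means of 259 ± 2.15 and 321 ± 24.3 (SD, n = 2). The G2/M genes took 211 and 110 CPM in sham and 588 and 468 CPM in BDL, means of 161 ± 71.2 and 528 ± 84.9 (SD, n = 2). That is 1.24-fold for the S phase sum and 3.29-fold for the G2/M sum. Unscaled, the log2 ratio of the G2/M sum was 1.67, and 2.32 without sham replicate 1. The ratio of the G2/M sum to the S phase sum was 0.81 and 0.43 in sham and 1.94 and 1.38 in the BDL libraries. Both BDL libraries thus lay above both sham libraries in each sum and in the ratio. No p is given for a sum over chosen members.

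Few genes set the S phase sum. Pcna, Pola1 and Mcm6, none of which passed the test, gave 64.4% and 61.9% of its UMIs in sham and 45.4% and 44.7% in the BDL libraries. Without these 3, a step chosen after their values were seen, the S phase sum was 92.9 and 98.1 CPM in sham and 166 and 187 CPM in BDL, 1.85-fold. Without Fanci, a gene that did not pass the test and was also chosen after its values were seen, the G2/M sum was 122 and 81.3 CPM against 480 and 420 CPM, 4.42-fold. On unscaled counts the 8 sublibraries, parts of the cells processed together, gave log2 ratios of 0.18 to 0.50 for the S phase sum and of 0.73 to 2.34 for the G2/M sum, each above 0.

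**Figure D3:**
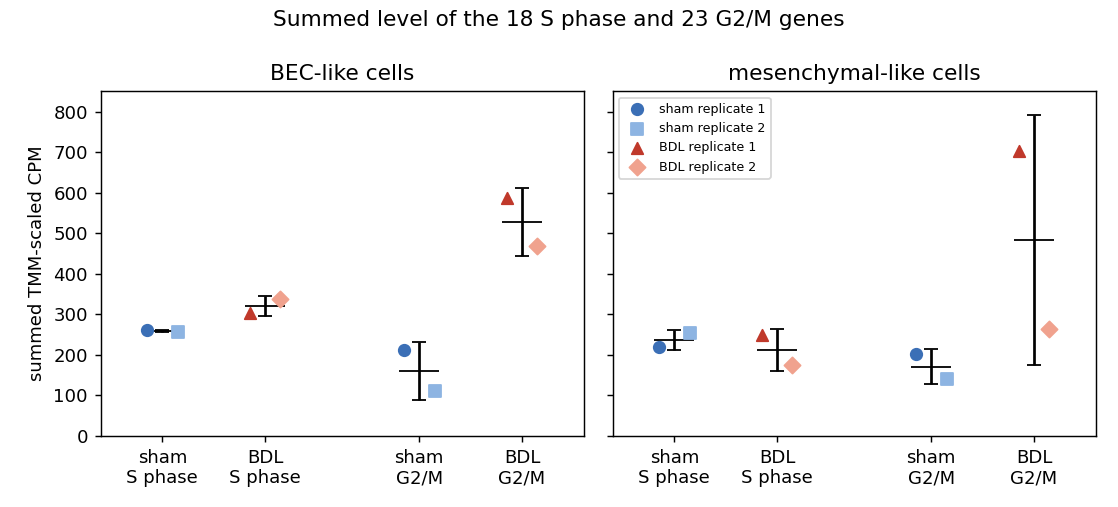
Summed TMM-scaled CPM of the 18 S phase and the 23 G2/M genes per library, in BEC-like cells (left) and mesenchymal-like cells (right); points are libraries, horizontal bars are group means and whiskers 1 SD of 2 libraries. In BEC-like cells the BDL libraries stand at 588 and 468 CPM for the G2/M sum against 211 and 110 CPM in sham, and in mesenchymal-like cells BDL replicate 1, at 702 CPM, stands far above BDL replicate 2, at 265 CPM.

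To compare single cells across depths, each cell was thinned to 1000 UMIs, and 85 and 108 shallower cells of the sham libraries were left out. At least 1 UMI of a G2/M gene was found in 12.5% and 8.82% of BEC-like cells in sham and in 22.5% and 19.6% in BDL. At least 3 different G2/M genes were found in 0.237% (6 of 2534 cells, exact Clopper-Pearson 95% interval 0.0869 to 0.515%) and 0.121% (3 of 2482, 0.0249 to 0.353%) in sham. In BDL they were found in 3.77% (74 of 1965, 2.97 to 4.70%) and 3.36% (128 of 3807, 2.81 to 3.98%). These intervals cover counting error only, and those of the sham and BDL libraries did not overlap.

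For S phase genes the share with at least 1 UMI was 23.05% (21.4 to 24.7%) and 21.2% (19.6 to 22.9%) of cells in sham and 23.7% (21.8 to 25.7%) and 24.9% (23.5 to 26.3%) in BDL, with overlapping intervals except between sham replicate 2 and BDL replicate 2. The share with 3 or more different S phase genes was 0.237% (0.0869 to 0.515%) and 0.282% (0.113 to 0.580%) in sham and 0.662% (0.353 to 1.13%) and 1.13% (0.819 to 1.52%) in BDL. Here BDL replicate 2 lay above both sham intervals, and the interval of BDL replicate 1 overlapped them. Cells with UMIs of both sets made up 3.31% and 2.18% in sham and 6.46% and 7.04% in BDL. Without thinning, S phase UMIs were in 54.4% and 46.9% of cells against 73.1% and 75.4%, and G2/M UMIs in 28.7% and 21.3% against 59.3% and 56.3%. No class here is known to lack these genes. After thinning, endothelial-like cells of sham replicate 2 had a G2/M UMI in 4 of 58 cells (6.90%, where all 122 endothelial-like cells of that library had a median of 955 UMIs before the shallower 64 were left out), next to 8.82% of its BEC-like cells (median 2758.5 UMIs), so a free RNA background for these genes could not be measured, and its part was not tested.

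Which cells held the transcripts was looked at by a description added after the data were examined, with each BEC-like cell thinned to 2000 UMIs. Of 2619 and 2590 sham cells 2041 and 1866 were deep enough, and of 1965 and 3807 BDL cells 1955 and 3772. More of the shallow cells were thus left out in sham. In the BDL libraries, cells with at least 2 other G2/M genes made up 9.04% to 10.6% of cells, depending on the gene left out. They held 58.6% of the G2/M UMIs and 24.9% of the S phase UMIs. The median over G2/M genes was 65.1%, from 18.9% for Fanci to 84.6% for Bub1. Over S phase genes it was 29.4%, from 17.3% for Mcm6 to 73.7% for Rrm2. Rrm2, with 28 of 38 UMIs in such cells (interval 56.9 to 86.6%), was the S phase gene whose share lay above the G2/M median.

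The UMIs of the S phase genes that rose were mostly in other cells, those with fewer than 2 G2/M genes detected after thinning. Such cells can still be in the cycle. No set of cells was picked by S phase genes, so the 2 sets were not treated alike. For Mcm3, 63 of 208 UMIs (30.3%, 24.1 to 37.0%) lay in cells with at least 2 G2/M genes, and for Uhrf1 54 of 186 (29.0%, 22.6 to 36.1%). In the remaining cells Mcm3 stood at 14.2 CPM in BDL and 4.70 CPM in sham, and Uhrf1 at 12.9 and 4.57 CPM. In the same remaining cells Pcna stood at 40.5 CPM in BDL and 57.1 CPM in sham. For a G2/M gene the remaining cells are those with fewer than 2 other G2/M genes, so they can hold the gene itself and another. In such cells Mki67 stood at 30.8 CPM in BDL and 8.32 CPM in sham, Diaph3 at 33.9 and 7.29 CPM, and Bub1 at 0.781 and 1.04 CPM. These CPM pool the 2 libraries of a group after thinning, and no test was made. Within cells with at least 2 G2/M genes, Pcna was at 69.3 CPM in BDL replicate 1 and 77.0 CPM in BDL replicate 2. The sham libraries gave 49.02 and 65.2 CPM there, from only 5 and 3 UMIs.

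Seen the other way, cells with 2 or more different G2/M genes had an S phase UMI in 58.0% (51.4 to 64.3%) and 59.5% (54.3 to 64.5%) of cells in the BDL libraries. In cells with no G2/M UMI the shares were 34.1% (31.5 to 36.7%) and 35.7% (33.9 to 37.6%). In the sham libraries the cells with 2 or more were 51 and 23 in number, with shares of 43.1% (29.3 to 57.8%) and 34.8% (16.4 to 57.3%), and those with none had 37.8% and 35.1%. The intervals parted in each BDL library and overlapped in each sham library.

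**Figure D4:**
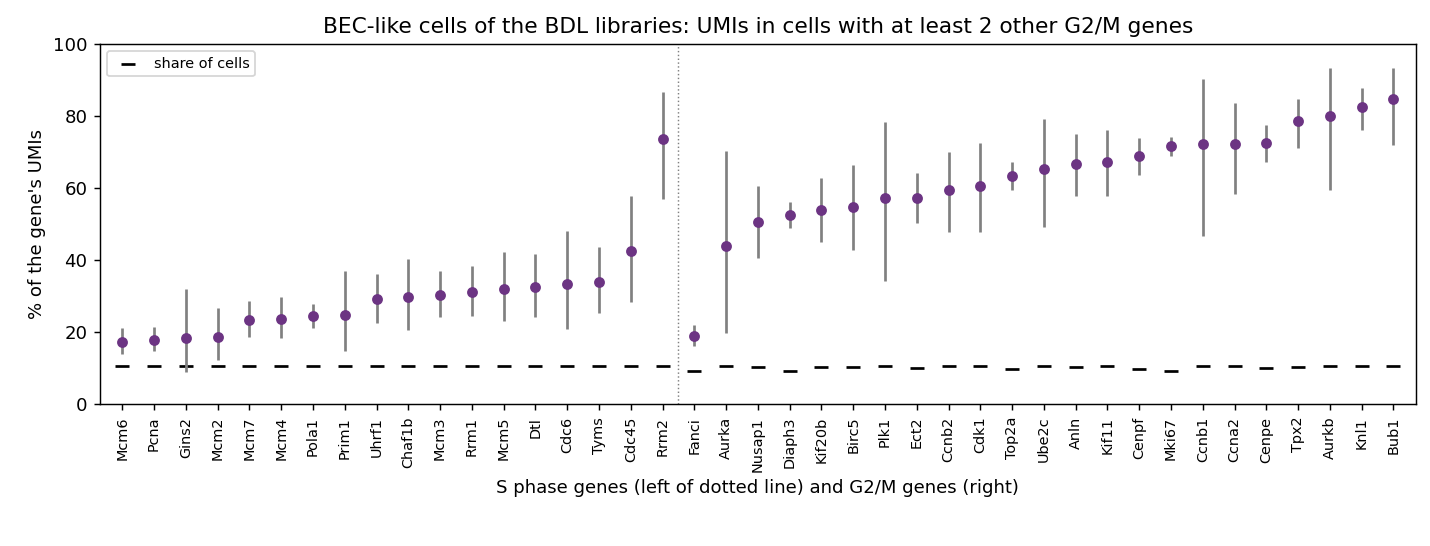
For each gene, the percent of its UMIs in BEC-like cells of the 2 BDL libraries that lay in cells with at least 2 other G2/M genes, after thinning to 2000 UMIs per cell; bars are exact 95% intervals and dashes the share of cells of that kind. S phase genes run from 17.3% to 73.7% and G2/M genes from 18.9% to 84.6%, with medians of 29.4% and 65.1%.

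Lists of other cell cycle genes, which hold no member and were chosen with results of these data known, are given next for BEC-like cells, with no test between lists. In the spindle, centrosome and cytokinesis list 19 of 29 genes rose and none fell, with a median log2 fold change of 1.43. Stil, a centriole duplication protein, stood at 2.82 and 2.75 CPM in sham and 19.4 and 17.6 CPM in BDL (2.72). The kinesin Kif15 had a log2 fold change of 1.97 and Prc1, which bundles the central spindle, of 2.10. Among kinetochore and centromere genes 15 of 23 tested rose and none fell (median 1.34), with Cenpi at 2.33, Kntc1 at 2.31 and Ndc80, which grips microtubules, at 1.85.

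Genes of mitotic entry, the anaphase-promoting complex and the checkpoint had 8 higher and 2 lower of 20 tested (median 1.001). Here Melk rose by a log2 fold change of 1.91 and the checkpoint protein Mad2l1 by 1.65, and Wee1, the kinase that holds Cdk1 inactive, fell from 48.1 and 46.4 CPM to 31.8 and 32.1 CPM (-0.56). Of 25 condensin, cohesin and mitotic chromatin genes 9 rose and none fell (median 0.37), among them the condensin subunits Smc2 (1.52) and Ncaph (2.45) and Arhgap11a (2.23).

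The replication lists come next. In licensing and origin firing 5 of 20 genes rose and none fell, with a median log2 fold change of 0.28. These include Mcm10 (1.36), Clspn (1.48) and Dbf4, the activator of the origin kinase Cdc7 (0.98). In the replication fork and S phase chromatin list 6 of 32 rose and 2 fell (median 0.19), so the share that rose was near that of all genes tested, 14.3%. Hells (0.95) and Atad2 (0.87) rose there, while Slbp, which binds histone mRNA, fell by 0.86 and the histone chaperone Nasp by 0.90, a gene named after its value was seen. Of 18 tested genes of the DNA damage response 7 rose and none fell (median 0.74), with Brca1 at 1.71, Topbp1 at 0.96 and Atr at 0.91.

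Regulators were mixed. Of 22 genes of the E2F, MuvB and FOXM1 list 7 rose and 2 fell (median 0.50). E2f3, an activator of S phase genes, stood at 26.5 and 20.4 CPM in sham and 84.9 and 90.8 CPM in BDL (1.90 ± 0.15, adjusted p = 0.000592), E2f8, a repressor of the same family, had a log2 fold change of 2.51, and Foxm1 of 1.57. E2f1 and Mybl2, the gene of B-Myb, did not pass the test, at 0.86 (adjusted p = 0.210) and 0.63 (adjusted p = 0.281).

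In the list of G1 cyclins, their kinases and inhibitors, 5 of 17 tested rose and 3 fell (median -0.07). Cdk6, a kinase of G1, stood at 169 and 168 CPM in sham and 436 and 559 CPM in BDL (1.56). Of the inhibitors, Cdkn2b rose from 1.84 and 3.002 CPM to 14.9 and 12.4 CPM (2.51), and Cdkn1c fell from 8.25 and 9.26 CPM to 2.77 and 2.43 CPM (-1.76). Cyclin D1, Ccnd1, stood at 364 and 395 CPM in sham and 410 and 357 CPM in BDL (0.02 ± 0.12, adjusted p = 0.938). Ccne1 had a log2 fold change of 0.45 and an adjusted p of 0.369, and Cdkn1a, the gene of p21, of -0.08 and 0.633.

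Motif content was also set beside the calls. An E2F match stood in 5 of the 6 S phase genes that rose and have an entry, and in 3 of the 10 that did not rise. For a CHR match in G2/M genes the numbers were 10 of 13 and 4 of 7, and for CHR and CCAAT together 7 of 13 and 4 of 7.

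In mesenchymal-like cells the G2/M set was higher in BDL mainly through 1 library, and no S phase gene of the 5 that could be tested passed the test. Sums held 513495 to 1273311 UMIs per library, so that 1 UMI was worth 0.785 to 1.95 CPM before scaling. The S phase genes took 219 and 254 CPM in sham and 248 and 176 CPM in BDL, and the groups overlapped. The G2/M genes took 202 and 140 CPM in sham and 702 and 265 CPM in BDL, from 142, 165, 345 and 302 UMIs. Both BDL libraries lay above both sham libraries, but the log2 ratio of unscaled sums, 1.51 with all libraries, was 0.69 without BDL replicate 1 and 2.03 without BDL replicate 2. Between the 2 libraries whose cell tables match their labels it was 1.75 for the G2/M sum and 0.13 for the S phase sum, where all 4 libraries gave -0.12. Median log2 fold changes over the members tested were 1.82 for the G2/M set and -0.46 for the S phase set with all 4 libraries, and 2.32 and -0.13 between those 2. Of the G2/M genes tested, Tpx2, Anln and Ccnb2 stood at or under 5.96 CPM in both sham libraries. They passed the filter on low counts through the BDL libraries, which can raise the G2/M median. The S phase median turned to 0.79 without sham replicate 1 and to 0.21 with no filter on low counts, and the log2 ratio of the S phase sum to 0.075 without BDL replicate 2 and to 0.23 without Pcna, Pola1 and Mcm6, so its direction was not settled. The ratio of the G2/M sum to the S phase sum was 0.92 and 0.55 in sham and 2.83 and 1.502 in BDL.

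Only 14 members passed the filter on low counts in these cells. They are Pcna, Mcm4, Mcm6, Rrm1 and Pola1 of the S phase set and Mki67, Top2a, Ccnb2, Cenpe, Tpx2, Anln, Diaph3, Nusap1 and Fanci of the G2/M set. The other 27 members are described by counts alone, apart from the comparison with BEC-like cells by interaction below. No S phase gene was called higher or lower in edgeR or DESeq2. At an unadjusted p under 0.05, edgeR gave none higher and 1 lower (Pola1), and DESeq2 gave none. Of the G2/M genes 1 was called, Diaph3, where 2.18% of 8818 genes tested were called higher and 3.52% lower.

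Diaph3 stood at 15.7 and 7.66 CPM in sham and 73.2 and 33.3 CPM in BDL, with no overlap (log2 fold change 2.18 ± 0.53, adjusted p = 0.0464). It was called under 10 of 12 alternatives. The call was lost without BDL replicate 1, where its log2 fold change was 1.58, and with sums thinned to the shallowest library, where it was 2.02, and adjusted p reached 0.168. Mki67 stood at 17.1 and 22.1 CPM in sham and 151 and 45.6 CPM in BDL (2.21 ± 0.55, adjusted p = 0.0508) and passed under 7 of 12 alternatives, with adjusted p from 4.44e-11 to 0.166.

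Of the other 7 G2/M genes tested none passed, and 4 had log2 fold changes between 1.70 and 2.39. Anln stood at 1.42 and 5.96 CPM against 32.5 and 15.8 CPM (log2 fold change 2.39, adjusted p = 0.0742), Tpx2 at 5.70 and 5.96 CPM against 30.5 and 14.9 CPM (1.82, adjusted p = 0.102). Cenpe stood at 7.12 and 11.9 CPM against 67.1 and 13.1 CPM (1.82, adjusted p = 0.196) and Ccnb2 at 2.85 and 5.96 CPM against 18.3 and 14.02 CPM (1.70, adjusted p = 0.128). Over the alternatives the log2 fold change ran from 0.39 to 2.74 for Cenpe, 1.90 to 3.83 for Anln, 1.32 to 2.35 for Tpx2 and 1.39 to 2.39 for Ccnb2. With no filter on low counts Cenpe, Anln and Tpx2 passed the test. Top2a overlapped between groups, with a log2 fold change of 0.77 and an adjusted p of 0.406. Nusap1 and Fanci, which overlapped between groups in BEC-like cells, overlapped here too, with log2 fold changes of -0.48 and 0.72. Of the S phase genes tested, Mcm4 stood at 9.97 and 12.8 CPM in sham and 32.5 and 16.6 CPM in BDL (0.97, adjusted p = 0.297), and Pcna, Rrm1, Mcm6 and Pola1 had values between -0.44 and -0.83.

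The BDL libraries did not move together. Over all members, BDL replicate 1 lay above both sham libraries for 18 of 23 G2/M genes and 6 of 18 S phase genes, and BDL replicate 2 for 11 and 7. BDL replicate 1 was the higher of the 2 for 21 G2/M genes and 13 S phase genes. No such counts over all genes tested are available here. Many members also rest on few UMIs, such as Bub1 with 0 and 0 in sham and 5 and 1 in BDL. Cenpf lay on opposite sides of both sham libraries in the 2 BDL libraries, while Tyms could not be placed. Cenpf stood at 8.55 and 6.81 CPM in sham, 59.0 CPM in BDL replicate 1 (29 UMIs) and 0.876 CPM in BDL replicate 2 (1 UMI). Tyms stood at 5.70 and 3.40 CPM in sham, 0 in BDL replicate 1, which at 3 UMIs is a limit of 6.10 CPM and above both sham values, and 9.64 CPM in BDL replicate 2.

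The class held 2 clusters, and their mix differed between groups. The cluster led by Colec10, Fcna and Ntm, with the stellate cell marker Lrat among its leading genes, made up 56.1% and 75.7% of mesenchymal-like cells in sham and 38.0% and 16.5% in BDL. The cluster led by Mgp, Fbn2 and Col1a1, which also met 3 smooth muscle markers, made up 43.9% and 24.3% in sham and 62.0% and 83.5% in BDL. In the first, the G2/M sum was 194 and 160 CPM in sham and 238 and 237 CPM in BDL, unscaled, and exact Poisson intervals of each BDL library (166 to 331 and 164 to 331) overlapped those of sham (150 to 248 and 134 to 189).

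In the second, the G2/M sum was 205 (162 to 257) and 71.3 (48.5 to 101) CPM in sham and 846 (755 to 946) and 271 (239 to 305) CPM in BDL. The libraries of each group thus differed beyond counting error, and the intervals of sham replicate 1 and BDL replicate 2 overlapped. S phase sums ran from 175 to 243 CPM over both clusters and all libraries. The summed level of 11 biliary markers in mesenchymal-like cells was 1282 and 1898 CPM in sham and 1114 and 2086 CPM in BDL. That of 5 smooth muscle markers was 268 and 289 CPM against 530 and 546 CPM, that of 5 Schwann cell markers 152 and 126 CPM against 325 and 599.7 CPM, and that of 9 endothelial markers 857 and 735 CPM against 896 and 982 CPM. Hepatocyte markers (107 and 351 CPM against 72.1 and 86.4 CPM), mesothelial markers (93.01 and 121 CPM against 19.5 and 40.6 CPM) and T or NK cell markers (46.5 and 43.2 CPM against 3.89 and 3.53 CPM) were lower in BDL. The part of these lists in the G2/M difference was not tested.

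**Figure D5:**
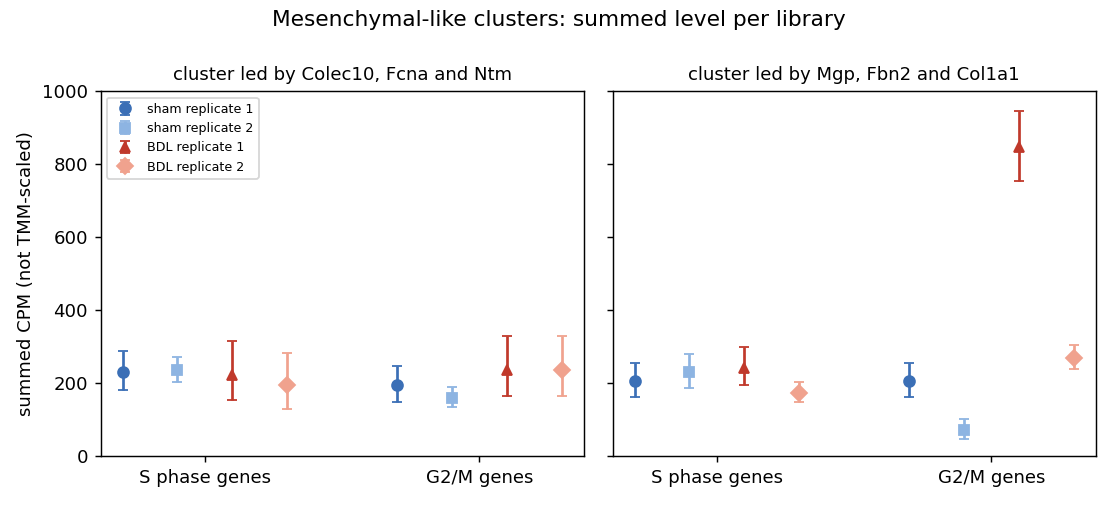
Summed CPM, not scaled by TMM, of the S phase and G2/M genes in the 2 mesenchymal-like clusters, per library; bars are exact 95% Poisson intervals, which cover counting error only. In the right panel the G2/M sum stands at 846 CPM in BDL replicate 1 and 271 CPM in BDL replicate 2, while S phase sums lie between 175 and 243 CPM.

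After thinning to 1000 UMIs, a G2/M UMI was found in 11.05% (20 of 181) and 11.3% (42 of 371) of mesenchymal-like cells in sham and in 23.9% (17 of 71, 14.6 to 35.5%) and 11.3% (15 of 133, 6.45 to 17.9%) in BDL. At least 2 different G2/M genes were found in 1.10% (2 cells) and 0.809% (3 cells) in sham, in 9.86% (7 cells) of BDL replicate 1 and 1.504% (2 cells) of BDL replicate 2. S phase UMIs were in 22.1% and 23.2% of cells in sham and 18.3% and 19.5% in BDL. Without thinning the shares were 31.6% and 21.9% against 57.7% and 51.9% for G2/M genes, and 52.9% and 43.5% against 66.2% and 72.9% for S phase genes. Left out as too shallow were 6 and 45 sham cells.

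Of the genes of the other cell cycle lists, E2f3 was the only one called in mesenchymal-like cells, with a log2 fold change of 1.69 ± 0.37 (adjusted p = 0.0326) beside 1.90 in BEC-like cells. That is 1 of 72 list genes tested, where 2.18% of all genes tested were called higher. Median log2 fold changes over the genes tested were 0.39 for the spindle list, 0.21 for the kinetochore list, 0.12 for the E2F, MuvB and FOXM1 list, 0.01 for the condensin list and -0.07 for the G1 list. They were -0.13 for mitotic entry, -0.29 for the replication fork, -0.70 for the DNA damage response and -0.75 for licensing, from 3 to 13 genes a list.

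Whether the effect of BDL differed between BEC-like and mesenchymal-like cells was tested per gene as an interaction, with the library as a block, over 15310 genes, of which 4.38% were called. Of the 41 members 1 was called, a share below that of all genes. This was Top2a, with a log2 fold change 1.52 ± 0.40 higher in BEC-like cells (adjusted p = 0.0430). Members too low to test in mesenchymal-like cells alone were included, since BEC-like counts alone can meet the joint filter. Their differences can be very uncertain, as for Bub1 (-5.68 ± 4.58) and Gins2 (-5.38 ± 4.35). The low share therefore does not show that the 2 classes respond alike. Top2a stood at 31.3 and 13.6 CPM in mesenchymal-like cells of sham and 48.8 and 28.04 CPM in BDL. The call was lost without BDL replicate 2. Uhrf1 had a difference of 2.41 ± 0.67 (adjusted p = 0.0580), Mcm3 of 2.49 (adjusted p = 0.167) and Mki67 of 1.03 (adjusted p = 0.361). Uhrf1 in mesenchymal-like cells stood at 9.97 and 8.51 CPM in sham and 8.14 and 5.26 CPM in BDL, from 7, 10, 4 and 6 UMIs. Mcm3 had 3 and 7 UMIs in sham and 0 and 5 in BDL there. Both genes were too low to test in mesenchymal-like cells alone. The difference between the 2 cell classes therefore passed the test for no S phase gene.

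Other classes were too small to compare. Macrophage-like cells numbered 12 to 53 per library, endothelial-like cells 19 to 122 and hepatocyte-like cells 2 to 36. The G2/M sum of macrophage-like cells ran from 155 CPM in sham replicate 2 to 1636 CPM in sham replicate 1, from 5 and 86 UMIs. In endothelial-like cells it was 288 and 68.8 CPM in sham and 689 and 404 CPM in BDL, from 10 to 53 UMIs.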

How the data were processed

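The deposited matrices hold UMI counts per gene and cell, per the file headers, with no normalization. Barcodes were added to fixed cells over rounds of pooling and splitting (Parse Evercode) with random hexamer and oligo(dT) primers, per the labels' protocols, so longer transcripts can give more counts and levels are not compared between genes. The cell tables deposited by the authors give counts of transcripts and reads per cell. The build is GRCm39, per the submitters' processing notes. The aligner, the cell threshold and strand use are not given in the sources used here.

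Cells with under 500 UMIs (7) or over 20% mitochondrial UMIs (10) were left out, and so were 14 doublets called by Scrublet, 0.115% of cells, a share too low to trust, so removal of the 5% with the highest scores was an alternative. The 2000 most variable genes (4 of them members), 30 components and 20 neighbours gave 17 Leiden clusters (scanpy 1.11.5, leidenalg 0.10.2). A cluster took a class name with at least 3 markers and 50% of the list, each in 5% of its cells and 2-fold above other cells, a rule set after seeing the data. Clusters with no other class were compared with non-biliary cells on the biliary list. Clustering without cycle genes moved 5 cells to another class.

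Counts were summed per library and class and tested in edgeR 4.0.16 (R 4.3.3; TMM, filterByExpr, quasi-likelihood F test, two-sided, Benjamini-Hochberg over all genes tested, threshold 0.05), with DESeq2 1.42.0 as an alternative. CPM are TMM-scaled unless stated otherwise. Simulated data with 200 genes given a log2 fold change of 2 gave 96% recovered and 12 false calls of 15563 genes in BEC-like sums, 87% and 4 of 8416 in mesenchymal-like sums, and 86.5% and 3 of 14794 for the interaction. The changed genes were not drawn from the lowest levels, and for the interaction not from genes with few mesenchymal-like UMIs. The interaction run also used a fixed dispersion. These shares therefore do not apply to members with few UMIs. Replicate numbers were given in sample order and pair nothing.

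The members, role groups and pathway lists were chosen with earlier results of these data known. Full values are given for the member with the smallest and the largest adjusted p in each role group in BEC-like cells. In mesenchymal-like cells they are given for members called and for those whose BDL libraries lay on opposite sides of sham. From each pathway list up to 3 called genes with the smallest adjusted p are named, and Ccnd1, Ccne1, Cdkn1a, E2f1, Foxm1 and Mybl2 whatever their values. Any other gene was named after its values were seen. Alternatives covered normalization, tool, filters, thinning, each library left out, clustering, doublets and sublibraries.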

Additional observations from a re-analysis of the deposited data

Results flagged for a closer look

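The effect of ligation on Top2a differed between the 2 cell classes by the interaction test: its log2 fold change was 1.52 higher in BEC-like than in mesenchymal-like cells (adjusted p = 0.0430, edgeR quasi-likelihood F test over 15310 genes). It was the only call among 41 members, where 4.38% of all genes tested were called, and it was lost without BDL replicate 2. Top2a was higher in both BDL libraries than in both sham libraries in BEC-like cells, while in mesenchymal-like cells BDL replicate 2, at 28.04 CPM, lay below sham replicate 1, at 31.3 CPM. The mesenchymal-like sums rested on 16 to 32 UMIs of Top2a per library. Many other members had fewer there, so the lack of other calls says little about them. The mix of the 2 mesenchymal-like clusters also moved with the group, and its part in this result was not tested.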

How the results depend on the processing

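No paired analysis was possible because replicate numbers follow sample order and the labels hold none. Leaving out 1 library at a time, S phase genes called higher in BEC-like cells ranged from 3 to 12 as the share of all genes called higher ranged from 3.91% to 20.6%, G2/M genes called from 13 to 19, the median log2 fold change of S phase genes from 0.61 to 0.78, that of G2/M genes from 1.80 to 2.14, and the unscaled log2 ratio of the G2/M sum from 1.23 to 2.32. In mesenchymal-like cells G2/M genes called ranged from 0 to 4, the median of S phase genes tested from -0.79 to 0.79 and of G2/M genes tested from 0.88 to 2.35, and the log2 ratio of the S phase sum from -0.35 to 0.075 and of the G2/M sum from 0.69 to 2.03. Members called in the interaction ranged from 0 to 3. The 0 came without BDL replicate 2, and in mesenchymal-like cells the 0 came without BDL replicate 1.

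Between the 2 libraries with matching group names, BEC-like medians were 0.51 and 1.54, and log2 ratios of the S phase sum 0.12 in BEC-like and 0.13 in mesenchymal-like cells. With no filter on low counts the S phase median was 0.80 in BEC-like and 0.21 in mesenchymal-like cells, 6 mesenchymal-like G2/M genes were called and 2 interactions. With at least 10 CPM in 2 libraries, 5 S phase genes were called, median 0.55, from fewer genes tested. DESeq2, Leiden resolution 2 and removal of high doublet scores each called 2 mesenchymal-like G2/M genes, and thinned sums 0. Sublibrary 3 alone gave BEC-like log2 ratios of 0.50 (S phase) and 2.34 (G2/M) and sublibrary 1 gave 0.73 (G2/M). Mesenchymal-like cells were too few for sublibraries. Without Pcna, Pola1 and Mcm6 the unscaled log2 ratio of the S phase sum was 0.86 in BEC-like and 0.23 in mesenchymal-like cells.

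Shares of cells with a UMI, BDL minus sham, moved with depth. In BEC-like cells S phase shares differed by 2.17 percentage points at 1000 UMIs, 0.93 at 2000, 23.6 unthinned and 0.64 for at least 3 genes. G2/M shares differed by 10.4, 13.5, 32.8 and 3.39, and by 5.55 for at least 2 genes. In mesenchymal-like cells S phase shares differed by -3.71 at 1000, -11.5 at 2000, 21.3 unthinned, 0.055 for at least 2 and 0.70 for at least 3 genes, and G2/M shares by 28.1 unthinned. The cause of these shifts was not tested, beyond fewer samples or genes where stated. No direction of a called gene reversed, and 3 of 8 S phase and 13 of 16 G2/M calls in BEC-like cells held under all alternatives in which the gene was tested. Depth limits mesenchymal-like cells, where 27 members were too low to test.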
